A study of Mus musculus with 11 samples.

Results

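The insulin-like growth factor (IGF) system was followed in RNA bound to tagged ribosomes of mouse forebrain excitatory neurons. The 10 genes described are the ligands Igf1 and Igf2, the receptors Igf1r and Igf2r, the binding protein genes Igfbp2, Igfbp3, Igfbp4, Igfbp5 and Igfbp6, and the related gene Igfbpl1. They were chosen by name, each matched 1 of the 77179 rows of the deposited table, and all 10 were among the 19008 genes tested. Values are TPM, a measure of transcript abundance scaled per transcript length and to a fixed total per library.

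All mice carried the Cre-dependent reporter Rpl10aeGFP/eGFP, which adds GFP to the ribosomal protein Rpl10a. In the genotype NEX-Cre;Rpl10aeGFP/eGFP, Cre is made from the Neurod6 (NEX) locus, which marks excitatory neurons of the forebrain, and the NEX-Cre parents were on a C57BL/6J background. Cortex and hippocampus were handled together, so values are a mean over both. Ribosome-bound RNA (IP) was recovered with beads against GFP from NEX-Cre;Rpl10aeGFP/eGFP mice on postnatal days 7, 14 and 21 (called P7, P14 and P21). Each age has 3 such libraries. Whole-tissue RNA (input) was sequenced at P7 in 2 libraries, replicate 1 from NEX-Cre;Rpl10aeGFP/eGFP and replicate 2 from Rpl10aeGFP/eGFP without Cre. There was no input at P14 or P21, so whether a transcript is richer in the pull-down than in the tissue can be read at P7 only.

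IGF1 and IGF2 are secreted growth factors that signal through the receptor tyrosine kinase IGF1R and, together with insulin, through the insulin receptor. IGF2R, which is also the receptor for mannose 6-phosphate, carries IGF2 to lysosomes without signalling as a kinase. The binding proteins hold IGFs outside cells with high affinity, and IGFBP6 prefers IGF2. In the brain, IGFs are known for growth of neurons, myelination and survival, and Igf2 for strong expression in meninges and choroid plexus.

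The labelled cell type was checked first. Libraries held 15154 to 17793 genes at 1 TPM or more, and Pearson correlations of log2 values within groups ran from 0.988 to 0.994. Neurod6 was at 152 TPM ± 13.4 (SD, n = 3) in P7 IP and 112 TPM ± 32.6 (SD, n = 2) in input (log2 change 0.47 ± 0.14, adjusted p = 0.0118). Its input libraries differ in genotype at this same locus, with 89.1 TPM in the NEX-Cre input and 135 TPM in the input without Cre. Genotype and library cannot be told apart there, so the size of the Neurod6 change is uncertain. The vesicular glutamate transporter gene Slc17a7, which defines these neurons, was at 628 TPM ± 106 (SD, n = 3) and 537 TPM ± 32.4 (SD, n = 2), which was not called (0.21 ± 0.12, adjusted p = 0.124). Of 10 excitatory neuron markers 4 were higher in IP and 2 lower. The summed level of 12 inhibitory neuron markers in P7 IP was 9.68% of that in input, of 10 astrocyte markers 5.15%, of 10 microglia markers 12.4% and of 12 markers of mural cells, fibroblasts and meninges 10.7%. Transcripts of these other cells were therefore low but present in the pull-down. Since TPM values do not hold the number of reads, depth is unknown, and no counting error can be attached. The labels call the IP libraries biological replicates and do not say how many animals each holds, so p-values measure only the spread between these libraries.

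Upstream sequences are shown for Igfbp6 and Igfbp4, which had the largest rises with age, and for Igfbp5, which fell in both weeks. They are the 250 bases before the RefSeq start on the gene's strand, build GRCm38.p6, and lie at chr15:102143936-102144185 (plus strand) for Igfbp6, chr11:99040994-99041243 (plus strand) for Igfbp4 and chr1:72874866-72875115 (minus strand) for Igfbp5. Capitals mark matches to any of 5 short motifs on either strand.
Igfbp6: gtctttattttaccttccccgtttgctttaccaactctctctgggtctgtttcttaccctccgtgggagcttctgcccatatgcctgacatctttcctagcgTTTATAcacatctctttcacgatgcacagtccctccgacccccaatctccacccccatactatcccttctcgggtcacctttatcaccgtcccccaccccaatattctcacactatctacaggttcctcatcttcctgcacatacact
Igfbp4: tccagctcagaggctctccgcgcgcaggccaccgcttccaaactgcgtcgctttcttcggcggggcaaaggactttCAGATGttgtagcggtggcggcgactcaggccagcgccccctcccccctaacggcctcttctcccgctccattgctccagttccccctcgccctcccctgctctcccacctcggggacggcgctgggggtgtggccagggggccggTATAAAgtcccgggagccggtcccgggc
Igfbp5: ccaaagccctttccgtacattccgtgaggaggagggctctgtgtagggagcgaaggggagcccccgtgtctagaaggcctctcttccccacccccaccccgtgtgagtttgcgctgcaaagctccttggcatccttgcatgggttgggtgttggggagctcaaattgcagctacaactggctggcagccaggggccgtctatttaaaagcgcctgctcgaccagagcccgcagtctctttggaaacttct
The motifs were the TATA box TATAAA, the GC box GGGCGG, the E-box CAGATG bound by NeuroD factors, the core TGACG of the cAMP response element and the FoxO core GTAAACA, and none contains another. Of 32851 windows of this length in the table, 12.4% held TATAAA, 32.7% GGGCGG, 14.4% CAGATG, 17.8% TGACG and 3.17% GTAAACA. Igfbp4 had TATAAA at position -28 and CAGATG at -174, counted back from the start to the first base of the match. Igfbp6 had TATAAA on the opposite strand at -148, and Igfbp5 had none of the 5. GTAAACA was in none of the 13 windows of the 9 genes with an entry, and Igfbpl1 had none. The window of Igfbp4 was 69.2% G and C, that of Igfbp5 58.8% and that of Igfbp6 49.6%, where the median of all windows was 52.4%.

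At P7, IP was set against input to see which of these mRNAs the tagged ribosomes hold more or less of than the tissue. Of the 10 genes 9 were lower in IP and none was higher, with Igfbp3 not called (limma, adjusted p below 0.05 over all genes). Of all genes tested 69.8% were called, 18.6% higher and 51.1% lower. The median log2 change of the 10 was -1.09, beside -0.33 for all genes. Log2 changes are of TPM + 1 with the standard error of the limma fit, and they understate the change of low genes. The split over all genes depends on scaling: 3541 were higher and 9718 lower as deposited, and 6250 and 6147 with median-of-ratios scaling, which moves the median of all genes to 0.00. In bulk RNA, fewer cells of a type and less RNA per cell cannot be told apart.

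Both ligand mRNAs were far lower in the pull-down. Igf2 (ENSMUSG00000048583) was at 153 and 142 TPM in the input libraries and at 17.4, 17.3 and 12.8 TPM in P7 IP. No IP library came near the input, and the log2 change was -3.15 ± 0.12 (adjusted p = 2.06e-08). Igf1 (ENSMUSG00000020053) was at 5.61 and 5.49 TPM in input and at 1.08, 2.03 and 0.895 TPM in P7 IP, a log2 change of -1.52 ± 0.18 (adjusted p = 2.67e-05). In P7 IP Igf2 kept 10.7% of its input level and Igf1 24.1%. Both ligands are known from cells outside the excitatory lineage, Igf2 from meninges and choroid plexus and Igf1 from microglia and interneurons. All 12 markers of mural cells, fibroblasts and meninges were lower in IP (median log2 change -2.27, summed level 14.2 to 27.7 TPM in IP and 173 to 216 TPM in input), as were all 9 choroid plexus and ependyma markers (median -1.56, 20.8 to 32.5 TPM against 527 to 562 TPM). In P7 IP 6 of those 12 and 6 of those 9 stood under 1 TPM in every library. Kcnj8, Abcc9, Lum and Foxc1 of the first list were under 1 TPM in the IP libraries of all ages. So were Kl, Otx2, Aqp1, Kcne2 and Tmem212 of the second. These genes were tested only because the input libraries reached 1 TPM, which forces a lower value in IP. Acta2 of the first list was tested only through input as well. It was at 4.47 and 4.99 TPM there, and too few IP libraries reached 1 TPM, though a P21 library held 5.69 TPM. All 10 microglia markers (25.2 to 30.9 TPM against 198 to 256 TPM) and all 12 inhibitory neuron markers (85.7 to 100.2 TPM against 897 to 1028 TPM) were lower too. None of the marker genes of these 4 lists was at 0 in all P7 IP libraries. The part of these cells in the IP values of Igf1 and Igf2 was not tested.

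The receptor mRNAs were lower in IP by a smaller amount. Igf1r (ENSMUSG00000005533) was at 8.15 and 7.78 TPM in input and at 3.14, 3.32 and 3.43 TPM in P7 IP, a log2 change of -1.06 ± 0.09 (adjusted p = 2.35e-06). Igf2r (ENSMUSG00000023830) was at 6.27 and 5.51 TPM in input and at 2.20, 1.98 and 2.26 TPM in P7 IP, a log2 change of -1.13 ± 0.11 (adjusted p = 5.97e-06). The groups did not overlap for either gene, and P7 IP held 41.4% and 36.5% of the input level. Insr (ENSMUSG00000005534), the insulin receptor gene, stood beside them with a mean of 8.93 TPM in input and 3.49 TPM in P7 IP (-1.15 ± 0.10, adjusted p = 2.79e-06). After rescaling the change of Igf1r was smaller, -0.71 by median of ratios and -0.47 by quantile normalisation, and called under both. Quantile normalisation also brought Igf2r to -0.53 and Igf1 to -0.92, both still called.

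The binding protein genes differed among themselves. Igfbp2 (ENSMUSG00000039323), which astrocytes and meninges express, was at 149 and 150 TPM in input and at 29.0, 25.8 and 20.3 TPM in P7 IP, a log2 change of -2.55 ± 0.12 (adjusted p = 6.34e-08). Igfbp6 (ENSMUSG00000023046) was at 5.65 and 5.89 TPM in input and at 0.536, 0.782 and 0.615 TPM in P7 IP (-2.04 ± 0.18, adjusted p = 3.80e-06). These 2 were the binding protein genes with the lowest share of input, 16.7% for Igfbp2 and 11.2% for Igfbp6. Igfbp5 (ENSMUSG00000026185) was at 59.2 and 55.8 TPM in input and at 29.6, 35.7 and 35.4 TPM in P7 IP (-0.76 ± 0.09, adjusted p = 2.00e-05). Igfbp4 (ENSMUSG00000017493) was at 66.6 and 74.5 TPM in input and at 45.0, 51.9 and 46.4 TPM in P7 IP (-0.55 ± 0.10, adjusted p = 3.95e-04). The call of Igfbp4 was lost with median-of-ratios scaling, where its change was -0.15 (adjusted p = 0.211), while Igfbp5 stood at -0.36 and stayed called.

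Igfbp3 (ENSMUSG00000020427) had as much mRNA in the pull-down as in the tissue by TPM. Its input libraries were at 18.3 and 18.2 TPM and its P7 IP libraries at 18.9, 20.8 and 18.9 TPM. The IP values lay just above the input values, and the change of 0.09 ± 0.08 was not called (adjusted p = 0.346). It was called higher with median-of-ratios scaling (0.48, adjusted p = 1.70e-04) and after quantile normalisation (0.51, adjusted p = 9.43e-05). Endothelial cells are another known source of Igfbp3. All 10 endothelial markers were lower in IP (median log2 change -2.16, summed level 23.8 to 29.0 TPM in IP and 188 to 189 TPM in input), and none was at 0. Tek and Cdh5 were under 1 TPM in every IP library and were tested only through input, which forces a lower value in IP. This held for Emcn too, as too few IP libraries reached 1 TPM (highest value 1.035 TPM, at P14). Igfbpl1 (ENSMUSG00000035551), known from neural progenitors and newborn neurons, was at 15.8 and 17.0 TPM in input and at 10.01, 7.45 and 5.27 TPM in P7 IP (-1.06 ± 0.21, adjusted p = 0.00104). Its change was -0.68 by median of ratios and -0.58 by quantile normalisation, called in both. All 8 markers of radial glia and proliferating cells were lower in IP, while 3 of 12 immature neuron markers were higher and 4 lower. Of those 8, 5 (Nes, Mki67, Top2a, Ccnb1 and Cdk1) were under 1 TPM in every IP library. They were tested only because the input libraries reached 1 TPM, which forces a lower value in IP.

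**Figure D1:**
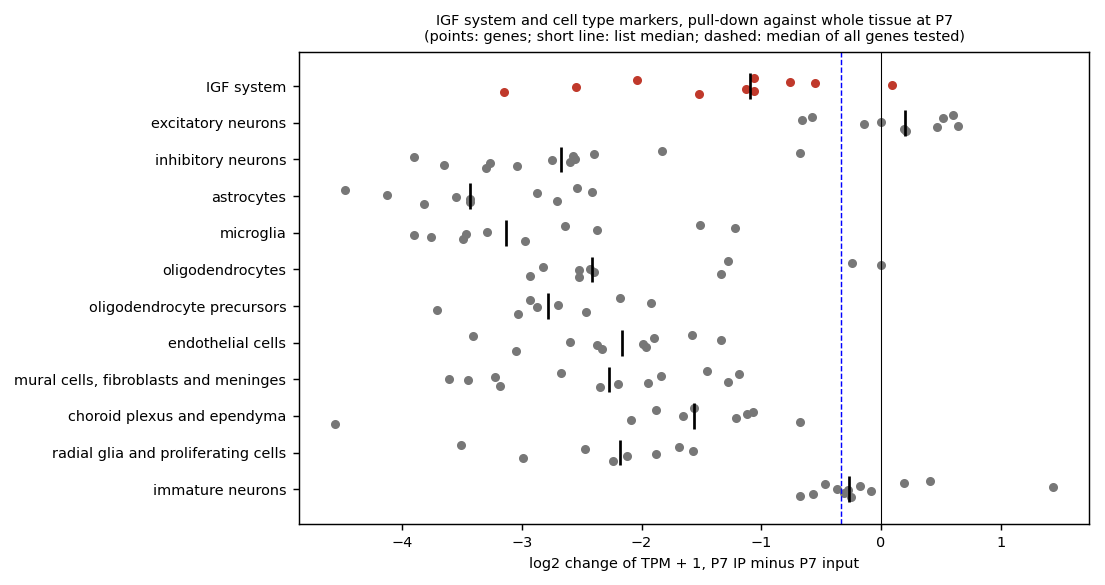
Log2 change of TPM + 1 between P7 IP and P7 input (horizontal axis) for the 10 IGF system genes and for the genes of each cell type list (rows); points are genes, short lines are list medians, and the dashed line is the median of all genes tested at -0.33. The IGF system spreads from Igf2 at -3.15 to Igfbp3 at 0.09, across the range between the markers of other cell types and those of excitatory neurons.

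The 3 ages of the pull-down were then compared to see how the mRNA of the system on these ribosomes changed between P7 and P21, with the second week taken as P7 to P14 and the third as P14 to P21. Of the 10 genes 7 differed over the ages (moderated F test, adjusted p below 0.05), where 62.6% of all genes did. The 3 not called were Igf1r, Igf2r and Igfbp2. Igf1r (adjusted p = 0.0851) was called by median of ratios, by quantile normalisation and by moderation without a trend (adjusted p = 0.0266, 0.0277 and 0.0454), and Igfbp2 (adjusted p = 0.250) when P7 IP replicate 1 was left out (adjusted p = 0.04998). Between P7 and P21 Igfbp4, Igfbp6 and Igf1r rose and Igf1, Igf2, Igfbp3, Igfbp5 and Igfbpl1 fell, 8 of 10 genes, with 59.9% of all genes called (27.3% higher and 32.6% lower). The median log2 change of the 10 was -0.14, beside -0.04 for all genes. The comparisons between ages share libraries and are not independent of each other.

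**Figure D2:**
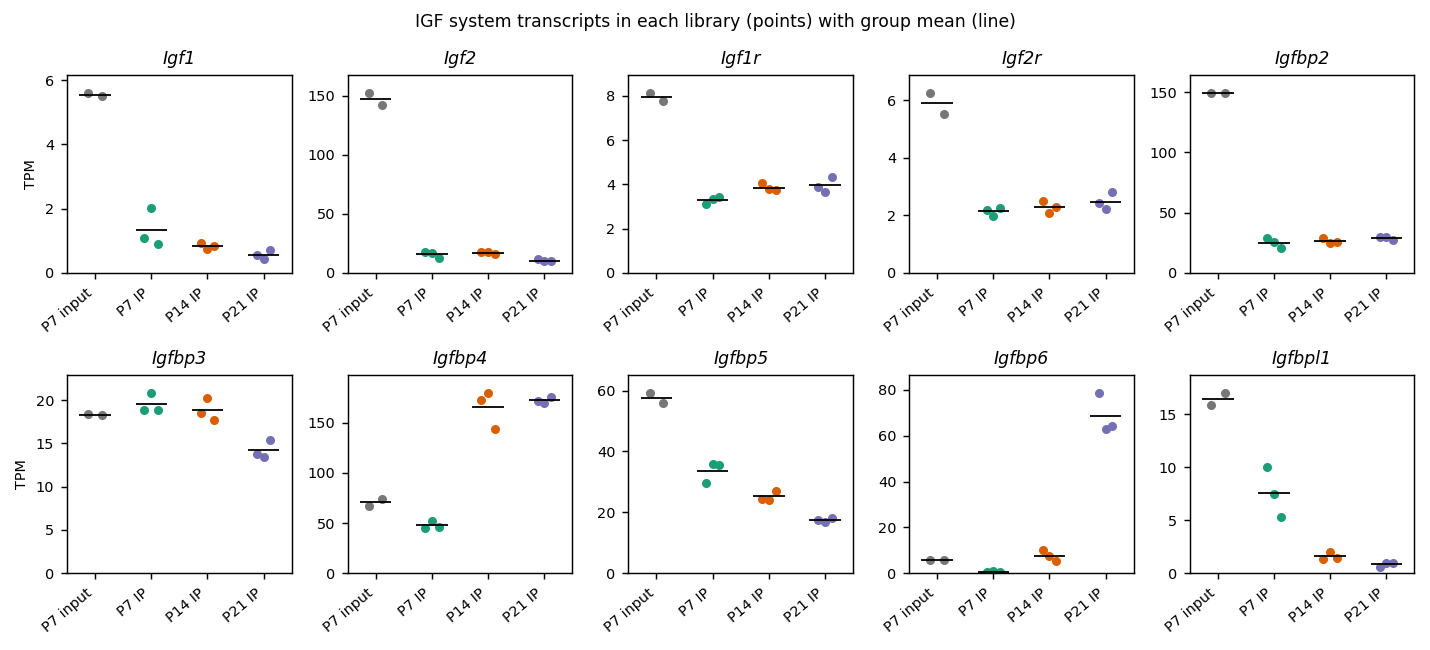
TPM (vertical axis, a separate linear scale from 0 in each panel) of the 10 IGF system genes in each of the 11 libraries; points are libraries, horizontal lines group means. Igfbp6 stands between 62.8 and 78.7 TPM at P21 and at or below 10.0 TPM in all other libraries, and Igf2 and Igfbp2 stand far higher in input than in any IP library.

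Igfbp6 had the largest change of the system. It went from 0.536, 0.782 and 0.615 TPM at P7 to 10.0, 7.36 and 5.52 TPM at P14 and to 78.7, 62.8 and 64.2 TPM at P21. Each age lay wholly above the one before it. The rise was 11.8-fold in mean TPM from P7 to P14 (log2 change 2.36 ± 0.17, adjusted p = 1.51e-06) and 8.99-fold from P14 to P21 (3.04 ± 0.17, adjusted p = 6.09e-06), or 106-fold over both weeks (5.40 ± 0.17, adjusted p = 5.59e-09). With a pseudocount of 5 TPM the log2 change from P7 to P14 was 1.15, still called. At P7 its level in the pull-down was the lowest of the 10 genes, and at P21 only Igfbp4 was higher. The step of the third week minus that of the second was 0.68 ± 0.29 and was not called (adjusted p = 0.115). Leaving out P14 IP replicate 1 made it a call (1.06, adjusted p = 0.0176). The pseudocount decided it as well: 5 TPM gave 1.40 (adjusted p = 0.00115), and 0.1 TPM gave -0.16 (adjusted p = 0.776).

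Igfbp6 is also known from meningeal and vascular fibroblasts, and markers of other cells moved over the same ages. Of the 12 markers of mural cells, fibroblasts and meninges none was called between P14 and P21. Between P7 and P14, 2 were higher (Rgs5 and Dcn) and 1 lower (Lum). Between P7 and P21, 1 was higher (Acta2) and 2 lower (Abcc9 and Lum). Acta2 had a mean of 0.257 TPM at P7 and 2.36 TPM at P21, where its libraries ran from 0.597 to 5.69 TPM. The summed level of the 12 was 14.2 to 27.7 TPM at P7, 24.3 to 24.9 TPM at P14 and 18.8 to 31.2 TPM at P21. Kcnj8, Abcc9, Lum and Foxc1 stood under 1 TPM in every IP library of P21. The mean sum at P21 was 1.13 times that at P7 for this list, and the sum follows its most abundant genes. Oligodendrocyte markers did move: all 10 rose from P7 to P21 and 9 from P14 to P21, with summed levels of 32.4 to 36.4 TPM, 302 to 408 TPM and 508 to 729 TPM at the 3 ages, a ratio of P21 to P7 of 19.3. Of those 10, Opalin and Ermn reached 1 TPM at P21 only, with highest P14 values of 0.822 and 0.635 TPM. They were tested only through P21, which forces a rise to that age. Astrocyte markers rose in 9 of 10 cases between P7 and P21 (141 to 195, 289 to 350 and 418 to 551 TPM, a ratio of 2.96). Of 12 inhibitory neuron markers 5 rose and 2 fell between P7 and P21 (85.7 to 100.2, 78.7 to 89.3 and 101 to 124 TPM, a ratio of 1.24). Among those 5, Pvalb was under 1 TPM in every P7 library, with a highest value of 0.850 TPM in input. It was tested only through P14 and P21, which forces a rise from P7. Single markers rose as much as Igfbp6: the myelin gene Mobp went from 0.622 to 48.8 and 96.0 TPM (154-fold from P7 to P21) and the interneuron gene Pvalb from 0.118 to 3.46 and 13.8 TPM (117-fold). No marker of these 4 lists was at 0 in all libraries of an age. The part of these cells, and of microglia, endothelial and choroid plexus cells, in the values of the IGF system over age was not tested.

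Igfbp4 rose in the second week and then stood level. It was at 45.0, 51.9 and 46.4 TPM at P7, at 173, 180 and 144 TPM at P14 and at 172, 170 and 176 TPM at P21. The P14 and P21 libraries overlapped and all lay above P7. The log2 change was 1.77 ± 0.09 from P7 to P14 (3.47-fold, adjusted p = 2.44e-07) and 0.07 ± 0.09 from P14 to P21 (adjusted p = 0.609). The 2 steps differed by -1.70 ± 0.15 (adjusted p = 2.16e-04). Igfbp4 was the most abundant of the 10 mRNAs in the pull-down at every age.

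Over the second week Igfbp4 and Igfbp6 rose and Igfbp5 and Igfbpl1 fell, 4 of 10 genes, and 49.5% of all genes were called, 26.7% higher and 22.8% lower. Over the third week Igfbp6 rose and Igf2, Igfbp3 and Igfbp5 fell, again 4 of 10, and 28.3% of all genes were called, 8.53% higher and 19.7% lower. That split was 1621 higher and 3749 lower, or 2732 and 2273 with median-of-ratios scaling. The median log2 change of the 10 was 0.09 in the second week and -0.10 in the third, and of all genes 0.03 and -0.08. For 3 genes the steps of the 2 weeks differed (24.3% of all genes, 7.46% with the second step higher and 16.8% lower): Igf2 and Igfbp4 with the second step below the first, and Igfbpl1 with the second step above it.

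**Figure D3:**
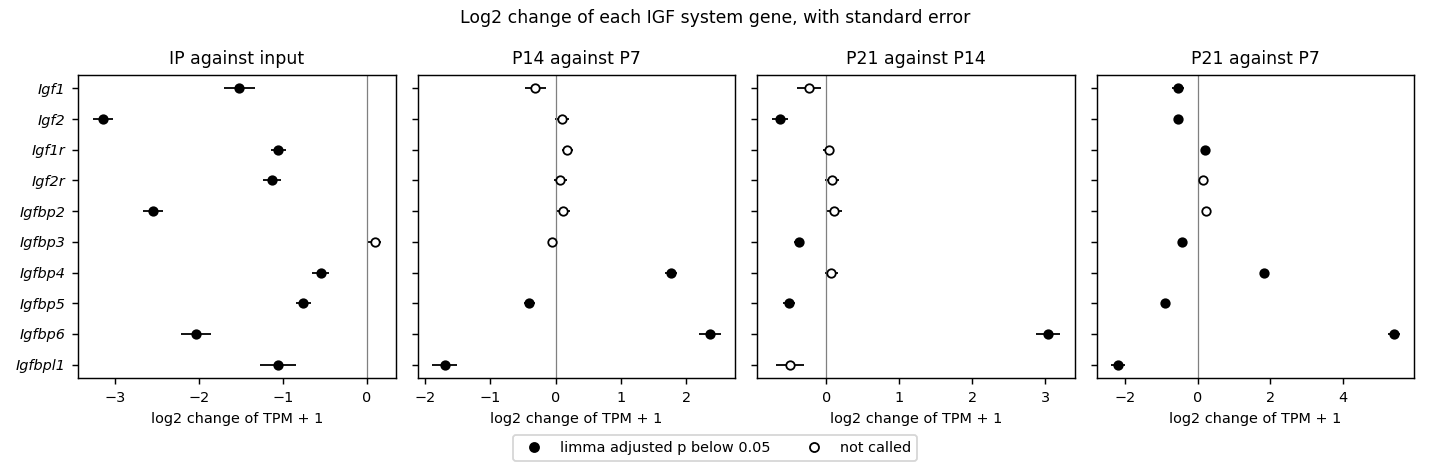
Log2 change of TPM + 1 (horizontal axis) of each IGF system gene (rows) in the 4 comparisons (panels), each the first named group minus the second; bars are standard errors and filled points have limma adjusted p below 0.05. Igfbp6 is the gene farthest to the right in all 3 age panels, with 2.36, 3.04 and 5.40.

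Igfbp5 fell in both weeks. It was at 29.6, 35.7 and 35.4 TPM at P7, at 24.5, 24.2 and 27.1 TPM at P14 and at 17.4, 16.7 and 18.1 TPM at P21, with no overlap between ages. The log2 change was -0.40 ± 0.08 in the second week (adjusted p = 0.00166) and -0.51 ± 0.08 in the third (adjusted p = 0.00102). Igfbp3 was at 18.9, 20.8 and 18.9 TPM at P7 and at 18.5, 20.2 and 17.7 TPM at P14, which overlapped, and at 13.8, 13.4 and 15.4 TPM at P21. Its fall came in the third week, with a log2 change of -0.38 ± 0.07 (adjusted p = 0.00312) after -0.05 ± 0.07 in the second (adjusted p = 0.584). The difference between its 2 steps was not called (adjusted p = 0.0783), but it was without P21 IP replicate 3 (adjusted p = 0.0396).

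Igfbp2 showed no called change with age in the pull-down. Its libraries were at 29.0, 25.8 and 20.3 TPM at P7, 29.4, 25.1 and 26.1 TPM at P14 and 29.4, 30.1 and 27.2 TPM at P21. The P21 against P7 change of 0.21 ± 0.11 was not called (adjusted p = 0.118) but was without P7 IP replicate 1 (0.32, adjusted p = 0.0200). In the RefSeq order of protein-coding genes of GRCm38.p6, Igfbp2 and Igfbp5 are direct neighbours on chromosome 1. Igfbp1 is the neighbour of Igfbp3 on chromosome 11, and it had a highest value of 0.0667 TPM over the 11 libraries.

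Igfbpl1 fell most of all 10 genes. It was at 10.01, 7.45 and 5.27 TPM at P7, at 1.38, 1.96 and 1.40 TPM at P14 and at 0.561, 0.967 and 0.958 TPM at P21. No libraries overlapped between ages, and the log2 change was -1.70 ± 0.19 in the second week (adjusted p = 3.18e-05) and -2.20 ± 0.19 over both (adjusted p = 2.57e-06). With a pseudocount of 5 TPM these were -0.92 and -1.09, both called. The third week alone, at -0.50 ± 0.19, was not called (adjusted p = 0.0731). A pseudocount of 0.1 TPM gave -0.87 and a call (adjusted p = 0.0284). So did a fit of just the P14 and P21 libraries (-0.50, adjusted p = 0.0427). The 2 steps differed by 1.20 ± 0.33 (adjusted p = 0.0224), which was not called when P14 IP replicate 1 or 3 was left out (adjusted p = 0.0863 and 0.0783) or when 0.1 TPM was the pseudocount (adjusted p = 0.0605). Over the same ages 11 of 12 immature neuron markers fell from P7 to P21 (median log2 change -3.10), and their summed level at P21 was 0.150 times that at P7.

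The binding protein mRNAs changed in makeup as well as in amount. The summed TPM of the 5 genes Igfbp2 to Igfbp6 was 299 to 304 in input, 122 to 135 in P7 IP, 220 to 257 in P14 IP and 293 to 311 in P21 IP, with no overlap between ages. In input Igfbp2 made up the largest share, 49.6% ± 0.478 (SD, n = 2), and Igfbp4 23.4% ± 1.58. In P7 IP Igfbp4 led with 37.7% ± 0.993 (SD, n = 3), followed by Igfbp5 with 26.5% ± 2.52 and Igfbp2 with 19.8% ± 3.49. Igfbp4 held 67.7% ± 2.36 at P14 and 57.2% ± 1.74 at P21. The share of Igfbp6 went from 0.507% ± 0.0716 at P7 to 3.10% ± 0.735 at P14 and 22.7% ± 2.24 at P21, and that of Igfbp5 from 26.5% to 10.4% and 5.77%. Igfbp3 went from 15.4% to 7.73% and 4.71%. These shares are a description, with no test.

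**Figure D4:**
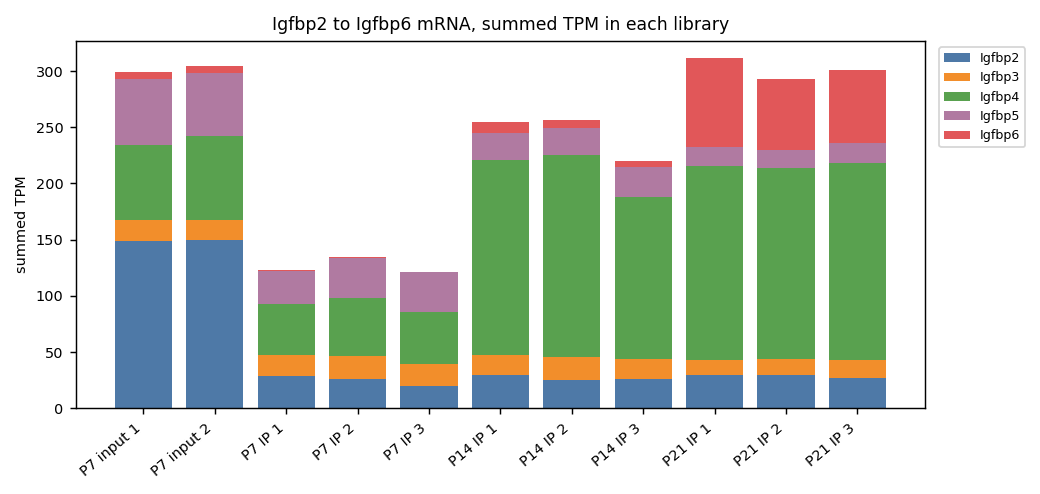
Summed TPM (vertical axis, from 0) of the binding protein genes Igfbp2 to Igfbp6 in each library (horizontal axis), stacked by gene. Igfbp2 is the largest part of both input libraries, Igfbp4 of every IP library, and Igfbp6 makes up 22.7% on average at P21, after 0.507% at P7.

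The ligands stood low in the pull-down at all ages. Igf2 was at 17.4, 17.3 and 12.8 TPM at P7, at 17.7, 17.5 and 15.7 TPM at P14 and at 11.4, 9.86 and 10.2 TPM at P21. P7 and P14 overlapped, and P21 lay below both. Its log2 change was 0.10 ± 0.11 in the second week (adjusted p = 0.471) and -0.64 ± 0.11 in the third (adjusted p = 0.00186), and the 2 steps differed by -0.75 ± 0.19 (adjusted p = 0.0170). The difference of steps was not called with median-of-ratios scaling (-0.59, adjusted p = 0.0620), after quantile normalisation (-0.58, adjusted p = 0.0548) or when P14 IP replicate 1 or 2 was left out (adjusted p = 0.0684 and 0.0665). The second-week value changed sign without P7 IP replicate 3 (-0.03), the lowest P7 library. Between P14 and P21, 1 of 9 choroid plexus and ependyma markers rose and none fell, with summed levels of 19.1 to 30.4 TPM and 30.9 to 52.8 TPM, and none of 12 mural, fibroblast and meningeal markers was called. The part of these cells in the fall of Igf2 was not tested.

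Igf1 was near or under 1 TPM in most IP libraries. It was at 1.08, 2.03 and 0.895 TPM at P7, at 0.946, 0.755 and 0.837 TPM at P14 and at 0.562, 0.429 and 0.721 TPM at P21. The P14 libraries overlapped with P7 and not with P21. Only the change over both weeks was called, -0.55 ± 0.16 (adjusted p = 0.0130), and without P7 IP replicate 2, the highest library, it was -0.34 (adjusted p = 0.0299). Without P7 IP replicate 3 the second week was called as well (-0.45, adjusted p = 0.0450). The F test over the ages (adjusted p = 0.0347) did not hold when P7 IP replicate 2 was left out (adjusted p = 0.0581), nor when P21 IP replicate 1 or 2 was (adjusted p = 0.0753 and 0.0985). Nor did it hold at a 5 TPM pseudocount, without a filter or in a fit of the IP libraries alone (adjusted p = 0.0538, 0.0990 and 0.0511). Of 10 microglia markers 9 were higher and 1 lower at P21 than at P7 (summed levels of 25.2 to 30.9 TPM at P7 and 37.1 to 50.2 TPM at P21), and their part in the values of Igf1 was not tested.

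The receptors moved little. Igf1r was at 3.14, 3.32 and 3.43 TPM at P7, at 4.05, 3.79 and 3.73 TPM at P14 and at 3.87, 3.64 and 4.36 TPM at P21. P7 lay below both later ages, which overlapped. The change from P7 to P21 of 0.20 ± 0.08 was called at adjusted p = 0.0478, but leaving out any 1 of the P7 IP libraries ended the call (adjusted p = 0.125, 0.0873 and 0.0599), as did leaving out P21 IP replicate 1 or 3 (adjusted p = 0.0787 and 0.156). A pseudocount of 5 TPM, no filter on low values and a fit of just the P7 and P21 libraries ended it too (adjusted p = 0.0538, 0.0606 and 0.115). With the replicate number as a block it was 0.20 (adjusted p = 0.0554). Igf2r was at 2.20, 1.98 and 2.26 TPM at P7, at 2.51, 2.08 and 2.30 TPM at P14 and at 2.42, 2.22 and 2.80 TPM at P21. The ages overlapped, and none of its age changes was called (adjusted p = 0.605, 0.604 and 0.233). Insr overlapped between ages as well, with means of 3.49, 3.36 and 3.18 TPM. The ratio of Igf1r to Insr TPM was 0.865 to 1.03 at P7, 1.12 to 1.20 at P14 and 1.16 to 1.29 at P21.

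**Figure D5:**
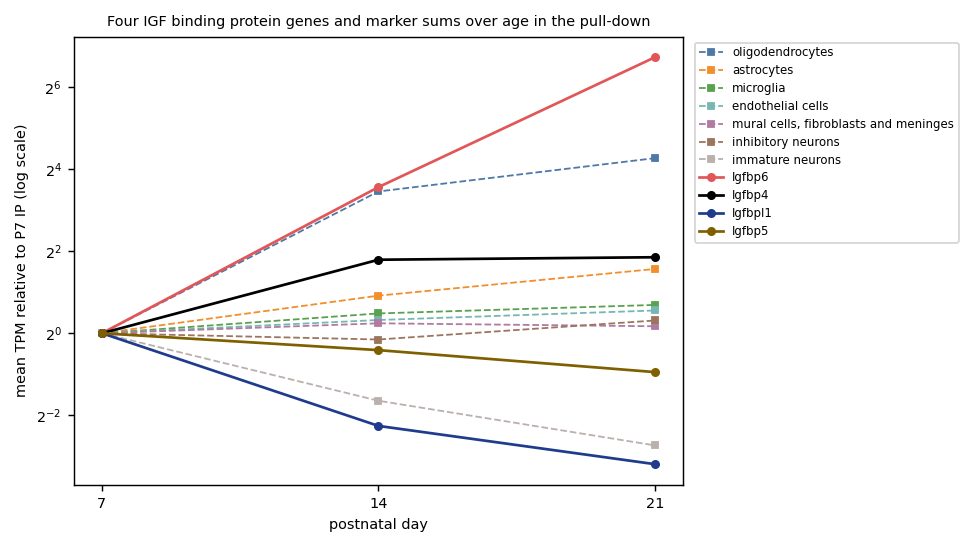
Mean TPM relative to P7 IP (vertical axis, log scale) at postnatal days 7, 14 and 21 (horizontal axis) for 4 binding protein genes (solid lines) and for the summed markers of 7 cell type lists (dashed lines). Igfbp6 reaches 106 times its P7 level, the oligodendrocyte sum 19.3 times and the mural, fibroblast and meningeal sum 1.13 times, and the relative level of Igfbpl1 lies below that of the immature neuron sum at P14 and P21.

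For the 4 genes with the largest change from P7 to P21, the most similar genes were found by Pearson correlation over the 9 IP libraries of log2 values among 9199 genes with a symbol and a mean of at least 10 TPM in 1 group or more. The libraries are shared and fall into 3 ages, so high values are common, and they are given as a description. Closest to Igfbp6 were Stac2 (r = 0.999), Pfkl, which encodes the liver form of phosphofructokinase (r = 0.999), and the potassium channel subunit gene Kcnab3 (r = 0.997). A correlation leaves out the size of a change. Stac2 went from 5.61 to 19.6 and 81.4 TPM, Pfkl from 23.7 to 35.8 and 61.0 TPM and Kcnab3 from 5.39 to 10.3 and 23.4 TPM. Closest to Igfbp4 were Faah, which encodes the enzyme that breaks down the endocannabinoid anandamide, Necab3 and Tmem38a (all r = 0.997). Nearest to Igfbp5 were Triqk (r = 0.996), Sobp (r = 0.995) and Gnptab (r = 0.994), a gene for the enzyme that tags lysosomal proteins with mannose 6-phosphate, the ligand of IGF2R. Aspdh, the histone demethylase gene Kdm1a and the mitochondrial import gene Timm50 were nearest to Igfbpl1 (r = 0.992, 0.991 and 0.991). Aspdh went from 12.3 to 4.92 and 3.59 TPM, Kdm1a from 52.2 to 41.2 and 37.1 TPM and Timm50 from 53.5 to 40.7 and 37.9 TPM.

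A wider list of genes for IGF availability and related binding also held receptor and hormone genes, Ghr among them. Its tested genes were lower in the pull-down, and those called in the second week rose. Of the 15 genes 9 were tested, and the binding protein gene Igfbp1, the acid-labile subunit gene Igfals and the protease gene Pappa, whose product cleaves IGFBP4, had highest values of 0.0667, 0.0518 and 0.104 TPM. All 9 were lower in P7 IP than in input, where 51.1% of all genes were (median log2 change -0.75 beside -0.33). In the second week 6 rose, none fell and 3 were not called, beside 26.7% and 22.8% of all genes (median 0.52 beside 0.03). In the third week 1 rose and 3 fell, beside 8.53% and 19.7% (median -0.15 beside -0.08). From P7 to P21, 5 rose and 3 fell, beside 27.3% and 32.6% (median 0.59 beside -0.04). Igfbp7 (ENSMUSG00000036256), a related gene that vessels express, went from 50.3 TPM in input to 3.99 TPM in P7 IP, 7.01 TPM at P14 and 15.4 TPM at P21 (P21 against P7 1.76 ± 0.19, adjusted p = 1.40e-05). Over those ages 3 of 10 endothelial markers rose, and their sum was 1.47 times that at P7. The serine protease gene Htra1 rose from 4.40 to 16.7 TPM in the second week (1.73 ± 0.15), and it is expressed by astrocytes. Ghr, the growth hormone receptor gene, fell in the third week from 3.54 to 2.43 TPM (-0.41 ± 0.10). Of the 3 genes for RNA-binding proteins of the Igf2bp family, Igf2bp1 had a highest value of 0.436 TPM, and Igf2bp3 rose from 1.41 to 3.07 TPM between P7 and P21 (0.73 ± 0.26, adjusted p = 0.0319).

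Of 42 genes of insulin and IGF signalling, mostly below the receptors, 41 were tested, and their calls lay near the shares of all genes in IP against input and in the second week. In IP against input 9 were higher and 24 lower, 21.95% and 58.5% beside 18.6% and 51.1% of all genes (median -0.41 beside -0.33). In the second week 11 rose and 8 fell, 26.8% and 19.5% beside 26.7% and 22.8% (median 0.00 beside 0.03). In the third week 4 rose and 11 fell, 9.76% and 26.8% beside 8.53% and 19.7% (median -0.13 beside -0.08). Over both weeks 10 rose and 17 fell, 24.4% and 41.5% beside 27.3% and 32.6% (median -0.12 beside -0.04). No result about the list is read from these counts, and single genes are given for their roles. Among docking and adaptor genes, Irs1 fell from 3.65 to 2.36 TPM in the second week (-0.47 ± 0.08), and Grb10, an inhibitor of receptor signalling, fell from 9.43 to 6.43 TPM in the third (-0.49 ± 0.08). The AKT kinase genes Akt1 and Akt2 moved in different directions. Akt1 was higher in IP than in input, 364 against 176 TPM (1.05 ± 0.08), and fell to 192 TPM at P14 (-0.92 ± 0.07). Akt2 rose from 41.6 to 65.9 and 81.2 TPM. The FoxO transcription factor genes were split too. Foxo3 rose from 5.78 to 13.0 and 16.9 TPM and Foxo4 from 2.01 to 5.96 and 8.85 TPM, while Foxo6 fell from 30.4 to 17.6 and 11.6 TPM. Socs2, which dampens growth hormone signalling, fell from 56.8 to 33.0 and 18.7 TPM (P21 against P7 -1.56 ± 0.08, adjusted p = 5.43e-08).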

How the data were processed

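Expression in 11 libraries was deposited by the authors as TPM, 1 row per gene ID. The submitters' processing notes list fastp 1.0.1, Salmon 1.10.0, DESeq2 1.46.0 and mm39 without their roles. Annotation, summing to genes and use of strand: not given in the sources used here. Because TPM has a fixed total, abundant genes that change shift the rest.

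Columns were matched to samples by name, and IDs to symbols by an Ensembl table (50886 matched). A gene was tested if 2 or more libraries reached 1 TPM. limma 3.58.1 (R 4.3.3) was run on log2(TPM + 1) with a mean for each group, trended moderation, 7 residual degrees of freedom and Benjamini-Hochberg adjustment across the 19008 genes, and called adjusted p below 0.05. The code was tested on simulated data. The IGF genes, gene lists and tests were chosen with earlier results of these data known. Named were all IGF genes, at most 4 called genes per direction, pathway list and comparison, Insr, Igfbp1, Igfbp7, Igfals, Pappa, Stc2, Igf2bp1 and Grb10, the 3 genes most correlated with each of the 4 IGF genes that changed most, and Neurod6 and Slc17a7 as checks. Markers could be named by level or size of change, and those named as under 1 TPM or for how they passed the filter were picked after their values were seen. RefSeq upstream sequences (GRCm38.p6, not the mm39 of the notes) matched 9 of 10 genes. Plots used matplotlib 3.10.9 (Python 3.11.15).

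The settings varied were the pseudocount (0.1 or 5 TPM), the filter (any value above 0, or a mean of 5 TPM), the scaling (median of ratios or quantile), the moderation trend, a block for replicate number, the groups in the fit, and leaving out each library.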

Additional observations from a re-analysis of the deposited data

How the results depend on the processing

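Over the 40 changes of the 10 genes in the 4 pairwise comparisons, 578 values were recomputed: 558 kept direction and call, 10 lost their call, 6 gained one and 4 changed sign, none of these 4 being called. The sign changes came with 1 library left out: from P7 to P14 the range was -0.035 to 0.173 for Igf2 and -0.027 to 0.219 for Igfbp2, both lowest without P7 IP replicate 3, and from P14 to P21 it was -0.030 to 0.129 for Igfbp4, lowest without P14 IP replicate 3, and -0.030 to 0.074 for Igf1r, lowest without P21 IP replicate 3. With no filter, 1 gene of the system (Igfbp4) and not 3 had weekly steps that differed. With a mean of at least 5 TPM, 10856 genes were tested, Igf1, Igf1r and Igf2r were not, and 8265 rather than 13259 genes were called in IP against input. Libraries with the same replicate number were at most weakly alike. Deviations from group means correlated at 0.012 to 0.177 for the 9 same-numbered pairs of IP libraries and at -0.123 to 0.102 for the other 18. For the 6 same-numbered pairs with input they correlated at -0.105 to 0.0852. With the replicate number as a block, 9, 4, 4 and 7 genes of the system were called in IP against input, P14 against P7, P21 against P14 and P21 against P7, where 9, 4, 4 and 8 were without it, and the F test of Igf1 was not called (adjusted p = 0.0613). Pseudocounts moved low genes by over 1.5 times: from P7 to P21 Igf1 changed by -1.04 with 0.1 TPM and -0.18 with 5 TPM, and in IP against input 5 TPM gave -0.64 for Igf1r, -0.74 for Igf1, -0.61 for Igf2r and -0.93 for Igfbp6, all called. Without sequencing depth, the counting error of genes near 1 TPM is unknown.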
